A study of Mus musculus with 6 samples.

Results

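The comparison set multipotent adult progenitor cells (MAPC, labelled mMAPC-1) against embryonic stem cells (ESC), with 2 arrays of each out of 6 arrays in the series. It was described across all probes that are not control spots, with the lead given to genes that were bright in both colours and to genes measured by several probes. Of 41006 such probes, 40991 gave a difference between the groups, and 15381 carried a gene name, for 12323 genes in all. MAPC are adherent cells grown out of mouse bone marrow. Both MAPC arrays carried the same clone, which the labels call clone 2 and high in Oct4, the protein of Pou5f1. The marrow was cultured for 4 weeks, depleted of CD45-positive leukocytes and Ter119-positive red cells, and replated at 10 cells per well. The clone was passaged at 100 to 200 cells per cm2 in 2% serum, 5% oxygen and 6% CO2 with epidermal growth factor (EGF) and platelet-derived growth factor BB (PDGF-BB) at 10 ng/ml each and leukemia inhibitory factor (LIF) at 1000 units/ml, and was taken past 80 population doublings. The ESC were C57BL/6 cells kept in 15% serum with LIF on irradiated embryonic fibroblasts, called feeders, and plated away from the feeders before RNA was taken. No strain is given for the MAPC, and oxygen is given for the MAPC but not for the ESC. Serum, growth factors and feeders therefore differed together with the cell type, and culture, strain and cell type cannot be told apart here. The neurosphere arrays (NS) entered the estimate of the spread and the choice of each gene's brightest probe, made by intensity over all 6 arrays. They also entered the normalization across arrays behind the sample channel taken alone and behind the fold bounds given below. Per the labels the arrays are biological replicates, but with 1 clone the p-values measure the spread between these cultures and not between clones.

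As background, ESC keep the pluripotent state of the inner cell mass through the transcription factors Oct4, Sox2 and Nanog, and they respond to LIF. The other lineage set aside early in the embryo is the primitive endoderm, which is driven by factors such as Sox17, Sox7 and Foxa2. Its parietal branch secretes large amounts of laminin and type IV collagen into a thick basement membrane, and so carries a heavy load of protein folding in the endoplasmic reticulum (ER). Marrow stromal cells, by contrast, are known for fibrillar collagens and other mesenchymal matrix genes.

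Each array carried the sample labelled with Cy3 and a common reference labelled with Cy5, a pool of RNA from 11 mouse cell lines. The values are ratios, sample over reference, in log2 units. Differences are MAPC minus ESC, and errors are moderated standard errors (SE) from limma with 2 arrays per group. Adjusted p-values are Benjamini-Hochberg values from the limma fit over all probes, called past the threshold below 0.05. In the sample channel 91.9% to 97.2% of spots on these 4 arrays exceeded background clearly, as Feature Extraction judged it. Across probes, replicate arrays correlated by 0.964 (MAPC) and 0.953 (ESC), and arrays of the 2 kinds by 0.571 to 0.585. The root mean square difference between replicates was 0.264 and 0.266, and that between group means was 0.813. Of the probes tested 33.5% passed, 6385 (15.6%) higher and 7358 (18.0%) lower in MAPC, and the median difference over all probes was 0.051. A probe was counted as bright when its mean intensity exceeded the median probe in both channels. Of 18842 bright probes tested, 993 (5.27%) were higher and 1417 (7.52%) lower at least 2-fold, 2410 (12.8%) together. Replicate number coincided with the day on which Feature Extraction read the images, and each day held both kinds. The differences within the days correlated by 0.911 across probes.

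**Figure D1:**
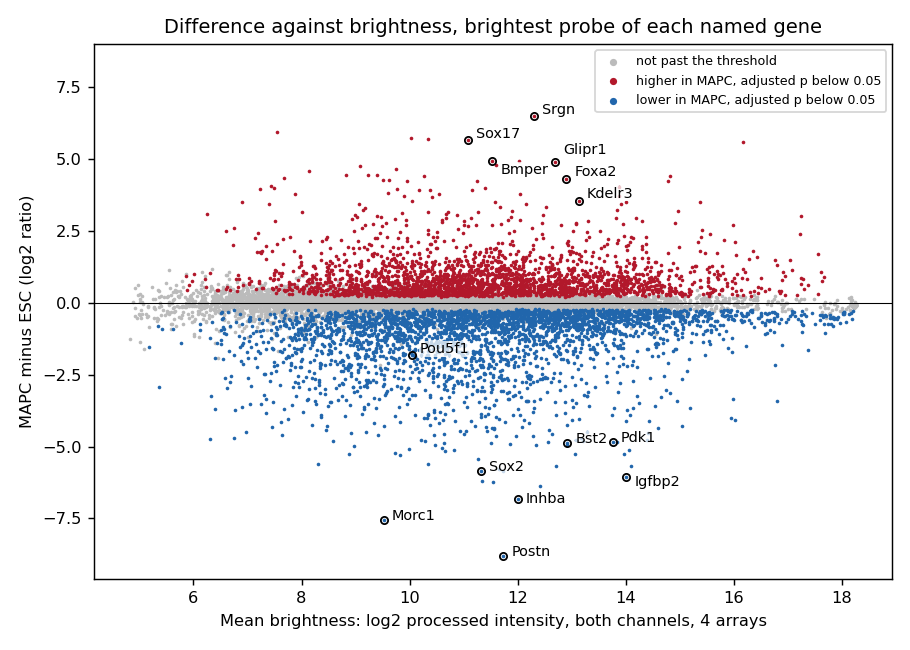
Each point is the brightest probe of 1 of 12319 named genes. The horizontal axis is mean log2 processed intensity over both channels and all 6 arrays, neurospheres included, although the axis title says 4. The vertical axis is the MAPC minus ESC log2 ratio. Red and blue points passed the threshold upward (2422 genes) and downward (3028 genes); Srgn (6.48) and Sox17 (5.64) stand highest among bright genes. Postn is drawn at its fitted value, although it was not well above background on MAPC and only a bound (at least 80.5-fold lower) can be given for it.

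Markers of several cell types were examined first, and they were chosen with earlier results of these data known. All 8 primitive endoderm markers examined were higher in MAPC, a count that describes the chosen set and is not a test. Of the wider list of 17 endoderm transcription factors, 5 were higher and 2 lower. The summed background-subtracted sample intensity of the 8 markers was 164800 and 157600 on the MAPC arrays against 9527 and 10190 on the ESC arrays. Such a sum weighs the brightest genes most. The markers include the laminin gene Lamb1, whose brightest probe was saturated on both MAPC arrays. Of the 7 pluripotency markers measured, 5 were lower in MAPC and none was higher, with sums of 919 and 970.3 against 22770 on each ESC array. The MAPC label "high Oct4" can be set beside the Pou5f1 probes directly. The brightest Pou5f1 probe had ratios of 1.30 and 1.78 on the MAPC arrays and 3.62 and 3.07 on the ESC arrays, so the groups did not overlap. Its difference was -1.80 ± 0.23 (adjusted p = 0.00359), and the other Pou5f1 probe gave -2.01. Of 7 measured fibroblast markers 5 were lower in MAPC and none was higher. Their sums were 530.2 and 584.4 on MAPC and 11630 and 7734 on ESC, so the signal of the cell type that feeders supply lay on the ESC arrays. Its part in the ESC values was not tested, and in such bulk RNA fewer cells of a type cannot be told apart from less RNA per cell. Blood and macrophage markers summed to 5407 and 5458 on MAPC and 6382 and 7616 on ESC, with 2 of 6 lower in MAPC and none higher. The pan-leukocyte gene Ptprc did not pass (0.04, adjusted p = 0.964), and its background-subtracted intensity lay between 8.16 and 15.3 on all 4 arrays. Endothelial markers summed to 717.8 and 850.3 on MAPC and 914.5 and 1089 on ESC, and neural markers to 188.1 and 214.7 against 277.1 and 364.8. No red cell marker had a named probe.

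The probes behind the leading markers are shown because the array measures a gene through 1 or a few probes of 60 bases each. The first 30 bases of each, 5′ to 3′ as deposited, were as follows.
Sox17: gttttaaatgccttgagggacttgctcccc
Srgn: accacgtttaaatgaccagtctcaggataa
Sox2: ctgcagttaaatttaggaccgttacaaaca
Postn: aaaccattcttcaggtataaagagaattac

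Among bright genes the largest rise was in Srgn, which encodes serglycin, the core protein of a secreted proteoglycan. Its ratios were 2.93 and 2.94 on the MAPC arrays and -3.49 and -3.59 on the ESC arrays, a difference of 6.48 ± 0.15 (adjusted p = 3.36e-05). Sox17, the endoderm transcription factor, had 5.44 on each MAPC array and -0.20 and -0.21 on the ESC arrays, a difference of 5.64 ± 0.061 (adjusted p = 2.86e-05). Foxa2, a forkhead factor of the endoderm, had 4.13 and 3.95 against -0.29 and -0.22, a difference of 4.30 ± 0.086 (adjusted p = 2.86e-05). For all 3 genes the replicates lay far closer together than the groups. Bmper, which binds bone morphogenetic proteins (BMP) outside the cell, had 3.43 and 3.39 against -1.69 and -1.34 and differed by 4.92 ± 0.12. Hs3st1, which adds sulfate to heparan sulfate chains, had 4.20 and 4.25 against -0.27 and -0.07 and differed by 4.40. Chil3, a chitinase-like lectin best known from macrophages, had 0.35 and 0.49 against -4.28 and -3.68 and differed by 4.39 ± 0.20. It was higher although the blood and macrophage markers were not. Lhfpl1 differed by 5.59 and Slc39a8, a zinc and manganese importer, by 4.55 on one probe and by 0.56 on its brightest.

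A group of X-linked genes stood among the leading rises: Lhfpl1, 3830403N18Rik, Xlr, Xlr4b and Rhox2a. Xlr had 0.42 and 0.30 on the MAPC arrays and -4.32 and -4.54 on the ESC arrays on its leading probe, a difference of 4.79, and its other probe gave 4.77. The 3 Xlr4b probes gave 3.72, 4.77 and 3.92. Members of the Xlr family are close copies, and 2 of the Xlr4b probes shared a run of 57 bases, so signal cannot be assigned to a single family member with certainty. Rhox2a, of a homeobox cluster with near-identical copies, gave 3.91 and 3.01 on its probes and is uncertain for the same reason. These genes were grouped by chromosome after their values were seen. Across the X chromosome, 36 of 428 genes (8.41%) were higher at least 2-fold and 46 (10.7%) lower, against 5.56% and 10.6% of all named genes. The X chromosome was not the highest of the chromosomes, since 8.7% of genes on chromosome 6 were higher at least 2-fold. Chromosome 3, with 7.59%, lay below X.

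The largest fitted fall was in Postn, which encodes the matrix protein periostin. Its ratios were -6.20 and -5.96 on MAPC and 3.11 and 2.36 on ESC. On MAPC it was not well above background, so only a bound can be given: it was at least 80.5-fold lower, with a fitted adjusted p = 4.4e-05, and its rank among the falls is not settled. Here "at least" sets the mean of the bright group against the lowest signal still well above background on the dim arrays, or the dim probe's own signal where that was higher. Morc1, a germ cell gene needed in spermatogenesis, had -3.77 and -3.24 against 4.03 and 4.10, a difference of -7.57 ± 0.44 (adjusted p = 0.000249). Inhba, the activin A subunit, had -4.45 and -4.52 against 2.25 and 2.43, a difference of -6.83 ± 0.13 (adjusted p = 2.86e-05). Lefty1, a secreted Nodal antagonist of pluripotent cells, had -1.96 and -1.56 against 4.49 and 4.44, a difference of -6.22 ± 0.14. The other 8 genes of this group ranged from -6.38 to -5.60. They were the matrix genes Col18a1 (-6.38) and Pcolce2 (-6.21), the growth factor carrier Igfbp2 (-6.06), the cell junction gene Perp (-5.85), the transcription elongation factor Tcea3 (-5.77), Oaf (-5.68), the tubulin-binding Stmn2 (-5.66) and the prostaglandin synthase Ptgs2 (-5.60). In each of the 24 leading genes the MAPC and ESC arrays did not overlap, a property that chose them and that 81.2% of bright named genes shared.

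**Figure D2:**
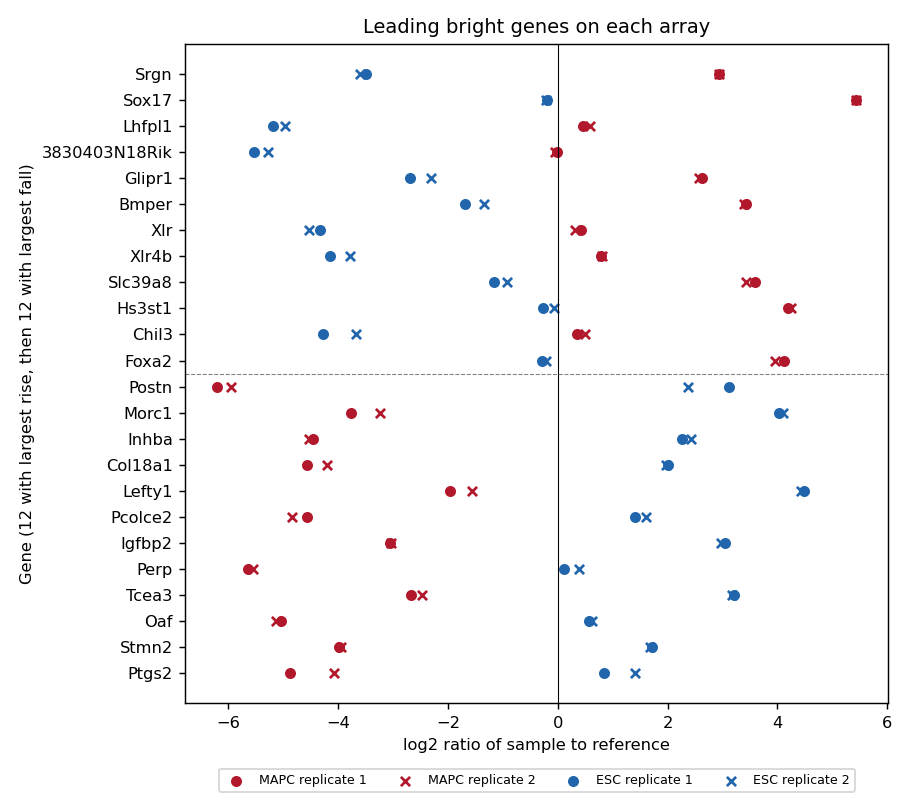
Log2 ratios of sample to reference on each MAPC array (red) and ESC array (blue) for the 12 bright genes with the largest rise and the 12 with the largest fall; circles are replicate 1 and crosses replicate 2. Replicates sit together: Sox17 reads 5.44 on each MAPC array, and Igfbp2 reads -3.06 and -3.04 on MAPC and 3.04 and 2.97 on ESC.

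Of 2796 genes with several tested probes, 344 had every probe higher in MAPC, 343 had every probe lower, 1206 had none called, 868 had only some called, and 35 had probes called in opposite directions. Where all probes were bright (1060 genes) the numbers were 188, 211, 339, 313 and 9. In 216 of the 2796 genes a pair of probes shared 20 bases or more. Without those, 317 genes were higher and 297 lower on every probe. Among the 560 genes with at least 1 probe called and 2-fold or more different, 329 had all probes called the same way and 215 had another probe that was not called. In 79 of the 560 the probe that was not called was the brightest one, so a gene described by its brightest probe can miss a difference that another probe shows. Thy1, a surface protein of fibroblasts and neurons, was such a case: its brightest probe gave -0.06 (adjusted p = 0.507) and its other probe -2.97 (adjusted p = 0.000202). Lifr, the LIF receptor, was another, with 0.08 (adjusted p = 0.42) and 2.20.

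Some pairs of unlike sequences gave nearly the same value. Glipr1, a secreted or membrane protein of the CAP family, gave 4.91 ± 0.10 and 5.10 ± 0.20, and Prss23, a serine protease, gave -5.27 and -5.30 with SE of 0.21 each. The first 30 bases of their probes are printed to show how unlike the paired sequences are.
Glipr1, brighter probe: ataattaccatctgggtaaagcacaaatat
Glipr1, other probe: taatggagcaaattttatatgcgactatgg
Prss23, brighter probe: cgtagtagtccttgaagagaacaataattt
Prss23, other probe: gcagtctgaaagcatacttttgcatagaga
The longest run shared by the 2 full probes was 7 bases for Glipr1 and 5 for Prss23. Other genes higher on all probes were 3830403N18Rik (4.94 and 5.37), the Ras-like Rasd1 (3.96 and 3.51), the lysosomal protease Ctsh (3.07 and 3.20) and the glycosyltransferase Gcnt1 (3.06 and 3.12). Genes lower on all probes included Sap30, a subunit of the Sin3 histone deacetylase complex (-4.85 and -4.75), the muscle-type tropomyosin Tpm2 (-4.58 and -4.26), the membrane-binding Anxa1 (-4.76 and -4.26), Wfdc2 (-4.49 and -3.98), the cationic amino acid transporter Slc7a3 (-4.70 and -3.61) and the fatty acid carrier Fabp5 (-3.35 and -3.55).

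**Figure D3:**
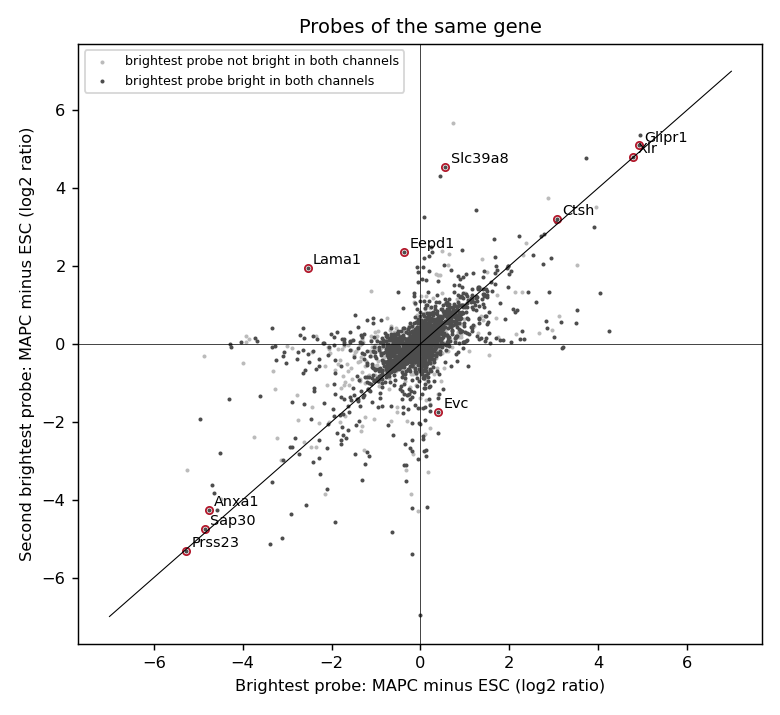
For each gene with several probes, the MAPC minus ESC log2 ratio of its brightest probe (horizontal) against that of its next brightest probe (vertical), with the line of equality. Across these genes, which are not independent replicates, the probes correlated by 0.606; Prss23 (-5.27 and -5.30) lies on the line and Lama1 (-2.54 and 1.94) far from it.

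The genes whose probes were called in opposite directions with the widest gap were Lama1, Eepd1 (-0.37 and 2.37), H3c15 (0.40, -2.28 and 0.01), Nfia (-1.11 and 1.35), Aqp5 (-1.47 and 0.74), Mapk11 (-1.87 and 0.31), Evc (0.39 and -1.75) and Osbpl5 (-0.05, -1.64 and 0.27). No direction is given for these genes from the ratios. In 6 of the 35 opposite genes, Lama1 among them, the sample channel by itself moved one way on all probes.

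Lama1 encodes the laminin alpha chain of the early embryo, and its channels are given one by one. On its brightest probe the sample intensity above local background was 65170 and 65160 on the MAPC arrays and 1363 and 1482 on the ESC arrays, and both MAPC spots were saturated. The reference intensity on that probe was 43340 and 46880 on the MAPC arrays and 260.7 and 289.7 on the ESC arrays, although the labels give the same reference pool for every array. The other probe read 34540 and 32080 against 129.2 and 176.9 in the sample and 4601 and 4636 against 81.44 and 142.4 in the reference. One MAPC spot of each probe was marked as an outlier and left out of the fit. Both probes were brighter in the MAPC sample, by at least 5.55 log2 units on the saturated probe and by 7.71 on the other. The ratio gave -2.54 and 1.94, and saturation makes the first of these a lower bound. The first 30 bases of the probes were these, with no run of more than 6 bases in common over the full length.
Lama1, brighter probe: atgttgaactaaagccacacggacaacaga
Lama1, other probe: gatatgcagctcttgtcaaggaaggttaca

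The reference signal differed together with the sample at other probes too. Tested by itself, the reference channel differed between MAPC and ESC arrays at 121 of 40991 probes (0.295%), all of them at least 2-fold. Among bright probes at least 4 log2 units higher in the MAPC sample (112 probes), the median reference difference was 0.88. It was 0.11 among those within 1 log2 unit. Downward the medians lay nearer to 0, with -0.01 among bright probes 2 to 4 log2 units lower in the MAPC sample and -0.13 among those at least 4 lower. For Sox17 the difference was 7.38 in the sample channel and 1.73 in the reference, and for Srgn 8.62 and 2.14. For Sox2, the pluripotency factor, it was -9.11 and -3.26, with a fitted ratio difference of -5.85 ± 0.071 (adjusted p = 2.86e-05). Feature Extraction marked the Sox2 spots as well above background on all 4 arrays, but the MAPC intensities above background were 10.6 and 17.9, which exceeded 98.4% and 99.7% of negative controls, so the size of the Sox2 difference rests on very dim MAPC spots. Its ratios were -0.24 and -0.17 on MAPC and 5.70 and 5.60 on ESC. Dppa3, a maternal factor of germ cells and naive pluripotent cells, was not well above background on MAPC and was at least 74.4-fold lower (fitted adjusted p = 0.00246), and its reference differed by -4.67. For Zfp42, a marker of naive ESC, the ratio difference was -0.25 (adjusted p = 0.335), while the sample channel differed by -1.68 after quantile normalization (adjusted p = 0.00142). By contrast the reference differed by -0.01 for Postn, -0.23 for Inhba and 0.74 for Bmper. Where the reference moved with the sample the ratio difference was smaller than the sample difference. Of the bright probes 43.5% passed, and at 291 of these the sign of the sample channel opposed that of the ratio, 20 of them with a ratio difference of at least 2-fold. The cause of the reference differences was not tested.

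**Figure D4:**
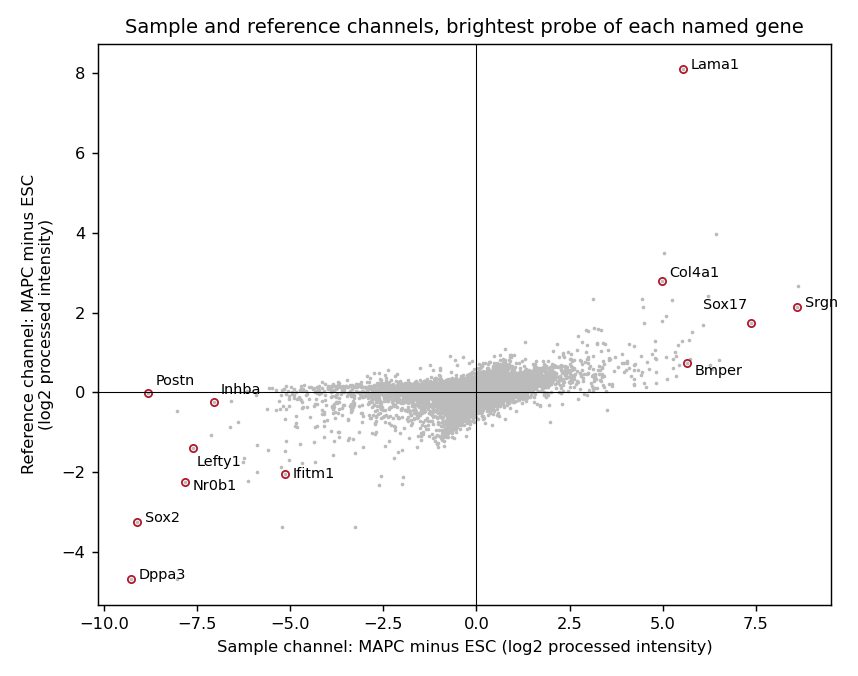
MAPC minus ESC difference of log2 processed intensity in the sample channel (horizontal) against the same difference in the reference channel (vertical), for the brightest probe of each named gene. The labels give the same reference RNA for each array; Lama1 (8.09), Col4a1 (2.79) and Srgn (2.14) lie above 0 and Dppa3 (-4.67) and Sox2 (-3.26) below it, while Postn lies at -0.01.

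The rest of the profile was read through 35 gene lists, each gene taken at its brightest probe. Over all 12319 named genes 19.7% were higher and 24.6% lower past the threshold, with a median difference of 0.02, and each list is to be read against these shares.

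Genes of protein folding and export in the ER stood higher in MAPC. Of 30 measured genes 26 were higher and none was lower, with a median of 1.08 on the ratio and 1.47 in the sample channel, where all named genes had 0.01. Kdelr3, a receptor that returns escaped chaperones to the ER, had 2.32 and 2.43 on MAPC and -1.09 and -1.27 on ESC, a difference of 3.55 ± 0.093 (adjusted p = 3.81e-05). Sec24d, a coat protein of the vesicles that carry procollagen out of the ER, was higher by 2.85, the collagen chaperone Serpinh1 by 2.71, and Dnajc3, a co-chaperone that also inhibits the kinase PERK, by 2.67. Hspa5, the central ER chaperone BiP, had 0.99 and 1.01 against -0.16 and 0.03, a difference of 1.06 ± 0.084 (adjusted p = 0.00066). P4hb (1.79), Herpud1 (1.61), Hyou1 (1.55, with 0.82 on another probe that did not pass) and the lectin chaperone Calr (1.32, and 1.44 on its other probe) were also higher. The transcription factor Xbp1 of the unfolded protein response was higher by 0.55. Atf4 (-0.16) and Ddit3 (-0.04), which respond to PERK, did not pass. Canx was higher by 0.24 on its brightest probe (adjusted p = 0.0376) and by 0.79 on the other. The first call was lost in the sample channel alone (adjusted p = 0.142), when arrays were centred on their median (0.0719), with the replicate block (0.0529), in the fit of MAPC and ESC arrays alone (0.0851) and without any 1 array (0.0884 to 0.138), with differences of 0.19 to 0.35.

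Promoters of this list were searched for the ER stress response element, CCAAT and CCACG with 9 bases between them, on either strand of the 300 bases from 250 before to 50 after each start in the RefSeq table (build GRCm38.p6). The element was present in 7 of 28 list promoters (25%) and in 39 of 32851 promoters overall (0.119%). The list is made largely of genes known to respond to ER stress, so the match describes the list and not the cells. Of the 7 genes, Pdia6 had no named probe. The other 6 (Calr, Canx, Creld2, Dnajc3, Hsp90b1 and Hspa5) were all called higher in MAPC, against 26 of 30 in the whole list. The Canx call was lost under several alternatives, as given above. Windows around the element are printed for 3 of them, on the strand of the gene, with the element in capitals. The Hspa5 window is chr2:34772005-34772063 on the plus strand, that of Dnajc3 chr14:118937807-118937865 on the plus strand, and that of Creld2 chr15:88819500-88819558 on the plus strand, where the element reads on the opposite strand.
Hspa5: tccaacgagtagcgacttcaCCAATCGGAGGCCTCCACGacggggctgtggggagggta
Dnajc3: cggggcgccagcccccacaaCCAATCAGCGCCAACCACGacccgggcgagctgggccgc
Creld2: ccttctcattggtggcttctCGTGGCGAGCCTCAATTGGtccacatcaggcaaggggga

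Most genes of the basement membrane and parietal endoderm list stood higher too. Past the threshold, 22 of 29 measured genes rose and 5 fell, and the median was 1.54 on the ratio. Here the median reference difference was 0.59, against 0.09 for all named genes, and the median in the sample channel was 2.91. Col4a1, a type IV collagen chain, had 2.93 and 3.07 on MAPC and 0.75 and 0.86 on ESC, a difference of 2.19 ± 0.081 (adjusted p = 7.57e-05), and 4.98 in the sample channel. The laminin chain Lamc1 was higher by 1.54 on the ratio and by 5.03 in the sample channel. The brightest Lamb1 probe was saturated in the sample channel on both MAPC arrays, so its differences of 1.67 on the ratio and 3.26 in the sample are lower bounds, and its other probe gave 2.68 on the ratio. The linker Nid1 (0.94) and the matrix protein Sparc (2.10) were higher. So were enzymes that modify collagen, Plod2 (3.23) and P4ha2 (2.75), and the plasminogen activator Plat (3.42), a product of parietal endoderm. Lower were the dystroglycan gene Dag1 (-1.71), Amn (-1.31) and Lama2 (-1.28). The 5 lower genes include Lama1 by the ratio of its brightest probe, although no direction is given for it and its sample channel moved the other way. Col18a1, a basement membrane collagen gene given above among the largest falls, was not on this list and is outside these counts.

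Of 17 endoderm transcription factors 5 were higher and 2 lower (median 0.00). Sox7 (4.43) stood beside Sox17 and Foxa2, and Nr2f2 was higher by 1.02. Otx2 (-3.45) and Gsc (-1.82), which also mark the anterior embryo, were lower. Hnf4a, a factor of visceral endoderm and liver, did not pass (0.00). Of 21 visceral endoderm and liver products 6 were higher and 5 lower (median 0.09), with Dkk1 (3.98), Afp (2.97, with 0.35 on another probe that did not pass), the retinoic acid hydroxylase Cyp26a1 (2.88) and Dpp4 (1.68) on one side, and the lipid carriers Apoe (-3.89) and Apoc1 (-3.73), Trf (-1.41) and Lefty1 on the other. Epithelial genes went both ways. The keratins Krt23 (4.59), Krt8 (3.94) and Krt18 (2.70) were higher, and Krt7 (-0.32 and -3.11 on its probes) and Krt20 (-1.13) were lower. The junction and membrane genes Spint2 (-4.46), Crb3 (-3.98), Cldn4 (-3.67), Cdh1 (-3.34) and Epcam (-2.09) were lower, and in all 4 of 25 were higher and 13 lower. Of 15 trophoblast genes 5 were lower, among them Tfap2c (-3.53), Esx1 (-3.35), Gata2 (-2.87) and Id2 (-2.79), and Gata3 was higher by 1.06.

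Among 28 pluripotency regulators 19 fell and 4 rose (median -1.40). Beside Lefty1 and Sox2, the nuclear receptor Nr0b1 (-5.60), with ratios of -0.40 and -0.18 against 5.34 and 5.27, and the Ras gene Eras (-4.52) were lower. Klf5 (0.76), Klf4 (0.68) and Lin28a (0.58), factors that are also used outside pluripotent cells, were higher. Trp53, the fourth, had probes called in opposite directions, 0.31 on the brightest and -0.78 on the other, so no direction is given for it. Among 25 germline-linked genes 14 fell and 2 rose (median -0.66). Beside Morc1 and Dppa3, the piRNA pathway gene Tdrd12 (-4.17) and the meiosis gene Stra8 (-3.45) were lower. Asz1, another piRNA pathway gene, went the other way: 4.32 and 4.28 on MAPC against -0.24 and -0.46 on ESC, a difference of 4.65 ± 0.10 (adjusted p = 2.96e-05). Among 8 DNA methylation genes Dnmt3b was lower (-1.13), the reader Mbd2 higher (1.01), and 6 were not called, the cofactor Dnmt3l among them (-0.04).

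Genes tied to the culture signals went both ways. Of 21 genes 4 rose and 8 fell (median -0.27). Pdgfra, a receptor for the PDGF given to MAPC, had 0.97 and 0.96 on MAPC and -2.61 and -2.44 on ESC, a difference of 3.49 ± 0.079 (adjusted p = 3.24e-05), and the receptor Kit was higher by 2.28 on its brightest probe, with 1.32 and -0.47 on the others, the last not past the threshold. Among early targets of growth factor signalling, Egr1 had -7.87 and -7.68 against -4.36 and -4.24 (difference -3.47). Fos, another early target, went the other way and was higher by 0.67. The brightest Dusp6 and Etv5 probes gave -3.28 and -3.24, but the other probe of each gave -0.05 and -0.42 and did not pass. Among targets of LIF signalling Socs2 was lower by 3.45 on the log2 scale and Socs3 was higher by 0.66. In the Nodal, activin and BMP list 9 of 34 genes were higher and 17 lower (median -0.23). Extracellular BMP and activin antagonists were among the higher genes, with Bmper, Nog (2.29) and Fst (1.30), and the receptor Bmpr2 (1.05). The BMP target Id3 (-4.11), the follistatin-like Fstl1 (-4.51), Nodal (-0.84), Inhba and Lefty1 were lower. Of 32 Wnt pathway genes 5 were higher and 12 lower (median -0.06): the inhibitor Dkk1, the nuclear factor Tcf7l2 (1.32), the co-receptor Lrp6 (1.26) and Frzb (0.76) against Rspo1 (-2.74), Lef1 (-2.12), Sfrp2 (-2.08) and Nkd1 (-1.70). In the axis of insulin-like growth factors 2 of 14 were higher and 6 lower (median -0.32), with Igfbp4 (2.05) and the RNA-binding Igf2bp3 (0.74) against Igfbp2, Igfbp7 (-3.92), Igf2bp2 (-1.43) and the protease Htra1 (-1.43).

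Among 29 antigen presentation and interferon response genes 23 fell and 1 rose (median -1.27). Bst2, which tethers budding virus to the cell, had -4.16 and -4.28 on MAPC and 0.59 and 0.71 on ESC, a difference of -4.87 ± 0.088 (adjusted p = 2.86e-05). The interferon regulator Irf1 (-3.15), the membrane proteins Ifitm1 (-3.09) and Ifitm2 (-2.80), Oas1a (-2.69) and the ubiquitin-like Isg15 (-2.12) were lower. B2m, the light chain of class I molecules, differed by -1.67 with 1 ESC array measured. Irf7 was higher by 0.36 on its brightest probe, and its other probe gave -0.06 and did not pass. Feeder and fibroblast markers were also higher in ESC, as given above, and their part in these values was not tested. The core of the interferon-stimulated response element, TTTC repeated after 2 bases on either strand, was present in promoters of 13 of 29 list genes (44.8%) and of 1079 of 27025 genes overall (3.99%). Of the 12 of these 13 genes that were measured, 10 were lower and none was higher, against 23 of 29 lower in the whole list. That list is made largely of interferon-responsive genes, so this match too describes the list and not the cells. These windows show the element in capitals for Bst2 (chr8:71537573-71537622, minus strand) and for Ifit3, which differed by -1.16 (chr19:34583353-34583402, plus strand), in GRCm38.p6 and on the strand of the gene; overlapping matches are capitalized together.
Bst2: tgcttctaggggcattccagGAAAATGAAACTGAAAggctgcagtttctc
Ifit3: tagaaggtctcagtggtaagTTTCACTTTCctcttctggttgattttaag

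Among 31 fibroblast and mesenchymal genes 23 fell and 3 rose (median -1.62). Col1a1 and Col1a2, chains of fibrillar type I collagen, were lower by 2.91 and 2.82 on the log2 scale. The protease Mmp3 (-5.44), the collagen crosslinker Lox (-4.47) and the cadherin Cdh11 (-4.36) were lower, and Ccn2 (1.89), Vcam1 (1.53) and Ccn1 (1.22) were higher. The ESC arrays differed from each other at Mmp3 (0.88 and -0.55), Postn (3.11 and 2.36) and Dcn (-2.33 and -3.01), with replicate 1 the higher each time. Vimentin (Vim), an intermediate filament protein, did not pass (-0.26, adjusted p = 0.32). Integrin, cadherin and other adhesion genes were lower for 15 of 32 and higher for 6 (median -0.28), with the proteoglycan Sdc2 (-3.89) and Cd24a (-3.36) against the tetraspanin Cd9 (2.53), Gpc4 (1.21) and Sdc4 (0.90).

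Blood and vessel genes were mixed. Of 29 blood stem and progenitor regulators 8 were higher and 8 lower (median -0.01), with Meis1 (2.46), Kit, Procr (2.25) and Tek (2.21) against Gata2, Ly6a (-1.79), Cd34 (-1.70) and Myb (-1.22). Of 26 blood cell and macrophage genes 11 were lower, led by Ppbp and Lyz2 (each -3.38), Ctss (-2.85) and Cd53 (-2.30). The 2 higher were Chil3 and Hdc, the histamine-forming enzyme, which was not well above background on the ESC arrays and was at least 3.20-fold higher. Of 18 endothelial genes 7 were higher and 6 lower (median 0.10), with Ramp2 (2.92) and Flt1 (1.66) against Pecam1 (-1.12), Robo4 (-0.94), Plvap (-0.77) and Sox18 (-0.55). Of 22 coagulation and fibrinolysis genes 9 were higher and 10 lower (median 0.03): tissue factor F3 (2.96), the thrombin receptor Thbd (2.14), Plat and Procr against the plasminogen activator inhibitor Serpinb2 (-2.93), Gas6 (-2.97) and Serpinf1 (-2.39). That list also held Hdc, which is not a clotting gene. Of 29 neural markers 15 were lower and 3 higher (median -0.81). Stmn2, Otx2 and Sox2 were among the lowest, and Tubb3 (0.96), Slc1a3 (0.88) and Sox1 (0.27) were higher.

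Metabolic genes split within their pathways. In glycolysis and the hypoxia response 10 of 33 were higher and 16 lower (median -0.24). Pdk1, a kinase that inhibits pyruvate dehydrogenase and a hypoxia target, had -4.57 and -4.43 on MAPC against 0.49 and 0.19 on ESC. Its difference was -4.84 ± 0.13 (adjusted p = 0.000122). Ddit4 (-3.66), Ldhb (-3.65) and the phosphofructokinase Pfkp (-3.60) were lower. The hexokinase-like Hkdc1 had 5.70 and 5.52 against 0.06 and -0.26 (5.71 ± 0.13), and the collagen hydroxylase P4ha1 was higher by 1.94. The lactate carrier Slc16a1 was higher by 1.69 on its brightest probe, and its other bright probe gave 0.16 and did not pass. The MAPC were grown in 5% oxygen. Of 42 genes of oxidative phosphorylation 7 were higher and 8 lower (median -0.06), none by more than 2-fold, with Ndufa5 (1.00) and Cyc1 (0.81) against Ndufb9 (-0.54) and Cox6c (-0.53). Of 18 cholesterol synthesis genes 5 were higher and 6 lower (median -0.03), with Insig1 (1.11) and Scd2 (0.95) against Fdps (-1.34) and Dhcr7 (-0.95). In glutathione, metal and oxidant handling 9 of 37 were higher and 15 lower (median -0.15). The metallothioneins Mt2 (-4.07) and Mt1 (-2.16), the transferrin receptor Tfrc (-2.56) and Gstm1 (-2.37) were lower. The magnesium channel Trpm6 had 4.08 and 4.03 against -1.81 and -1.57 (5.74 ± 0.10) and Gpx3 was higher by 1.72. Among 24 nutrient transporters 8 rose and 10 fell (median -0.10), with Slc7a6 (2.43) and Slc38a1 (1.43) against Slc7a3, Slc6a6 (-3.21, with 1 ESC array measured), Slc16a3 (-2.56) and the iron exporter Slc40a1 (-2.02). Among 31 lysosome and endocytosis genes 14 rose and 6 fell (median 0.20). The endocytic receptor Lrp2 (1.40) and its adaptor Dab2 (2.54), both of the endoderm, were higher with Ctsh and Ctsl (1.13), and Ctsc (-2.28) and Scarb2 (-1.15) were lower.

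Among 60 cytosolic ribosomal protein genes 25 fell and none rose (median -0.28). That direction was seen on the ratio only: the sample channel had a median of 0.02 and the reference 0.31, and the channel by itself called 4 of these genes lower. The lowest was Rpl22 (-1.12). For 14 ribosomal genes the brightest probe was saturated in the sample channel on all 4 arrays, where a difference cannot be seen. Of 34 proteasome genes 13 were lower and 1 higher (median -0.12). Here too the sample channel had a median of the other sign, 0.07, with 0.24 in the reference, and called 4 genes lower. The largest falls were in interferon-inducible subunits and regulators, Psmb8 (-1.75), Psme2 (-1.27) and Psmb9 (-0.87). On the ratio, cytosolic chaperones were lower for 15 of 21 and higher for 1, Dnajb1 (0.54), with a median of -0.41. The falls on the ratio were led by the small heat shock protein Hspb1 (-2.73), Hspa4l (-1.35) and Hspa4 (-0.87). For these chaperones the sample channel had a median of -0.14 and by itself called 6 lower. The ER and the cytosolic chaperones thus had medians of opposite sign, a difference that was not tested. Of 40 cell cycle genes 9 were higher and 18 lower (median -0.06). The inhibitors Cdkn1c (-3.45) and Cdkn2b (-1.25), cyclin D1 (Ccnd1, -3.02, but -0.49 on its other probe) and Rb1 (-1.22) were lower. Higher were Cdkn1b (1.00), Cdk2 (0.97), Foxm1 (0.89) and cyclin A2 (Ccna2, 0.89).

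Among 37 chromatin regulators 19 fell and 7 rose (median -0.44). The Polycomb subunit Cbx6 had -5.42 and -5.11 on MAPC against -1.15 on each ESC array, a difference of -4.12 ± 0.11 (adjusted p = 4.11e-05). Hmga1 (-3.33, with 0.41 on another probe that did not pass), Phc1 (-2.46), the histone demethylase Kdm5b (-2.45) and Ezh2 (-0.65) were lower, and other Polycomb genes, Cbx8 (1.90) and Bmi1 (1.24), were higher with the methyltransferase Suv39h1 (1.54) and Arid3a (0.96). Of 28 Hox genes and their cofactors 11 were lower and 4 higher (median -0.44), with Hoxa7 (-2.45), Hoxc6 (-2.20) and Hoxa10 (-1.40) against Meis1, Meis2 (0.76) and Meis3 (0.44). Of 22 imprinted genes 10 were lower and 2 higher (median -0.33), with Dcn (-3.58), Cdkn1c, Ndn (-2.70) and Snrpn (-2.59) against Sgce (2.00) and Zrsr1 (0.37). The Y-linked genes Eif2s3y (-2.59), Ddx3y (-1.99) and Usp9y (-1.65) were lower in MAPC, and Uty, not well above background there, was at least 1.53-fold lower.

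**Figure D5:**
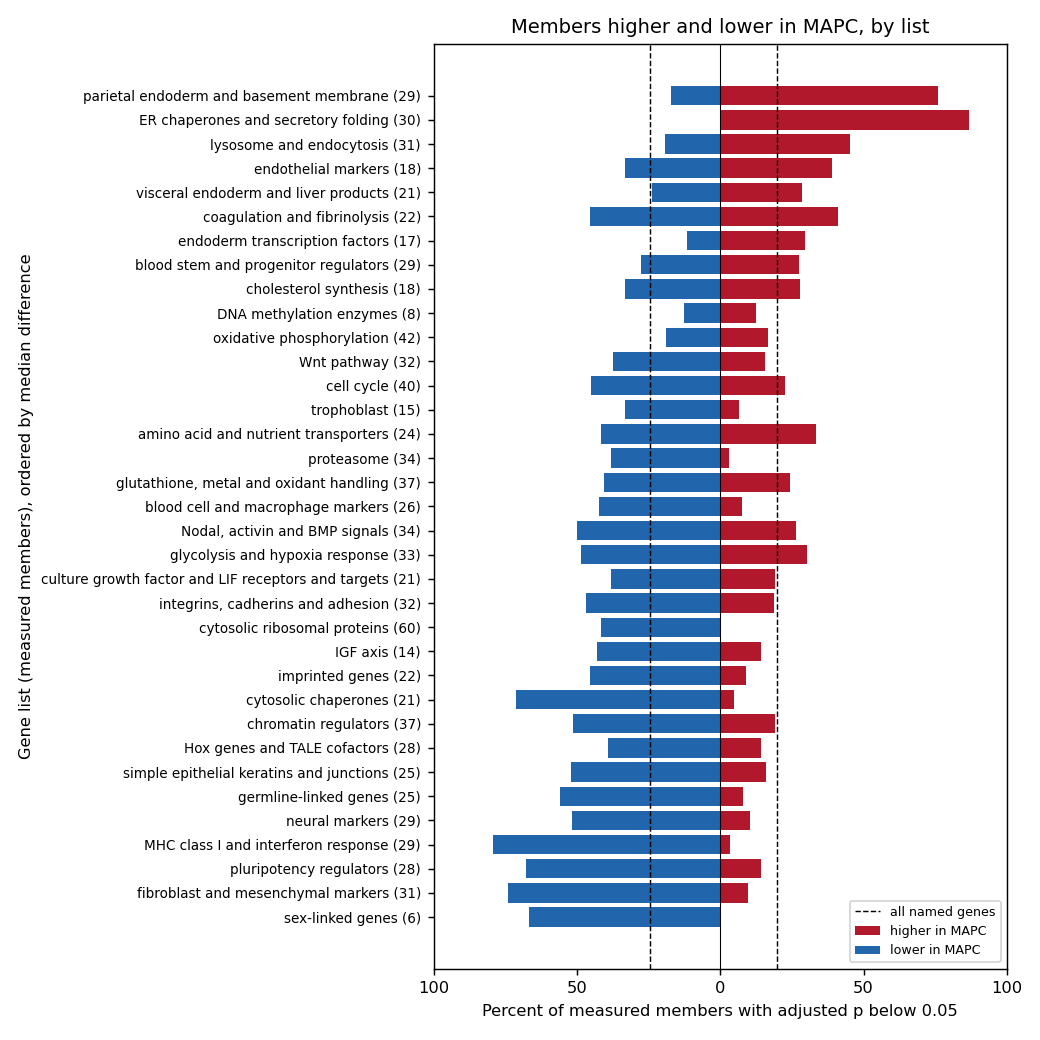
Percent of the measured members of each of 35 gene lists that passed the threshold higher in MAPC (red, to the right) or lower (blue, to the left), ordered by the median difference, with the number of measured members in brackets. Dashed lines mark the shares over all named genes, 19.7% higher and 24.6% lower; ER chaperones (86.7% higher) and basement membrane genes (75.9% higher) have the longest bars on the right, and interferon genes (79.3% lower), fibroblast genes (74.2%) and cytosolic chaperones (71.4%) on the left.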

How the data were processed

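Per the file headers, Agilent Feature Extraction A.7.5.1 read the arrays, and the deposited files hold for each spot the processed intensity of each dye, corrected for background and normalized between dyes by the authors. The deposited series matrix (log10) served as an alternative. Set against the arrays, its values behaved as the log10 ratio of sample to reference plus a constant for each spot. Its column medians were 2.95 to 2.97, and what set the constant stays unknown. Columns without a sample numbered 0. The log2 ratio of green to red processed intensity was taken for 41034 spots that are not controls, outlier spots were left out and spots of a probe averaged. All 6 arrays were fitted with limma 3.58.1 (lmFit and eBayes, 3 residual degrees of freedom, R 4.3.3), two-sided. The fit was tested on simulated data. With 2 arrays per group no permutation can reach the threshold, and the number of arrays limits precision.

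Of 41006 probes, 15294 were named through an accession in a RefSeq table (GRCm38.p6), 15 through a symbol and 72 through an older symbol, and 25625 stayed unnamed. Of 1109 list genes 887 had a probe. Promoter sequences came from RefSeq. Named were 6 markers, the 12 largest rises and falls among bright probes whose gene's probes all passed one way without overlap, 8 genes per direction with all probes agreeing, the 8 widest conflicts, and the 4 largest called members per list and direction; other list members named illustrate roles. Members and lists were chosen with earlier results of these data known. Alternatives were another background correction, centring, the sample channel alone, the series matrix, filters, saturated spots left out, the replicate block and leaving out each array. Replicate numbers in the labels are not tied to shared cultures, and deviations of same-numbered MAPC and ESC arrays correlated by 0.10. Some genes that the rule names are not reported here.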

Additional observations from a re-analysis of the deposited data

How the results depend on the processing

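The number of probes past the threshold (13743) and of bright probes past it and at least 2-fold (2410) stayed within 1.5 times under the alternatives run, except that the sample channel alone gave 8821 probes and a stricter limit of brightness gave 1211. With replicate number as a block, which here equals the day of image reading, 13478 probes passed and the block moved no list count by over 1.5 times, though Canx, Krt19 and Meis3 lost their call. The sample channel alone also lowered the genes with all probes called one way from 687 to 408, and the genes lower in MAPC from 18 to 9 (cell cycle), 16 to 10 (glycolysis), 8 to 2 (oxidative phosphorylation), 25 to 4 (ribosomal), 13 to 4 (proteasome), 15 to 6 (cytosolic chaperones), 6 to 2 (cholesterol) and 11 to 5 (Hox). The fit of MAPC and ESC arrays alone gave 4 endothelial genes higher in place of 7, as did median centring, 4 oxidative phosphorylation genes and 16 ribosomal genes lower. Centring on the median left 40.5% of calls upward against 46.5%. Leaving out 1 array gave 10125 to 10898 probes, 4 to 5 endothelial genes higher, and lower 7 to 10 blood cell, 3 to 6 oxidative phosphorylation, 7 to 15 ribosomal, 8 to 10 proteasome, 3 to 7 cholesterol and 6 to 9 Hox genes. Counts fell past 1.5 times without MAPC replicate 1 (blood cell), without ESC replicate 2 (proteasome), without either ESC array (cholesterol, Hox), without any array but ESC replicate 1 (endothelial, oxidative phosphorylation) and without any 1 array (ribosomal). Directions reversed with the average of a gene's probes for Eepd1 (1.00), Evc (-0.68), H3c15 (-0.62), Nfia (0.12) and Trp53 (-0.24), and in the sample channel for Lama1 (5.38) and Trp53 (-0.015). Of 286 genes followed, 239 kept direction and side of the threshold under every alternative that gave them a value. Leaving out 1 array ended calls for others, Dpp4, Pecam1 and Afp among them. Leaving out saturated spots and testing the reference channel alone were added after seeing the data. The cause of these changes was not tested.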
